A study of Bos taurus with 8 samples.

Results

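Matrix metalloproteinases and the genes that hold them in check were examined in rumen papillae, the finger-like projections of the rumen wall that absorb the products of fermentation. The set holds 10 genes: the metalloproteinases MMP1, MMP2, MMP3, MMP9, MMP13 and MMP14, their tissue inhibitors TIMP1, TIMP2 and TIMP3, and the urokinase gene PLAU. A member was measured where an array probe carried a RefSeq accession that the bovine gene table assigns to its symbol. This held for 7 of the 10 members, among 7788 gene symbols with such a probe, and each of the 7 had 1 probe. MMP3, MMP14 and TIMP3 had no probe named in this way, so they have no value here.

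The papillae came from 4 lactating, ruminally cannulated Holstein cows. In a crossover, each cow ate a diet with 40% concentrate (low-concentrate, LC) in one period and a diet with 70% concentrate (high-concentrate, HC) in the other, and papillae were taken on day 21 of each period, 4 h after the morning feed. Cows 1 and 2 began on LC and ended on HC, and cows 3 and 4 went the opposite way, which gives 4 samples per diet and 2 of each diet per period. The 8 RNA samples were hybridised to 8 single-colour bovine arrays, and the 4 arrays of a period shared a slide, so period and slide cannot be told apart. Both groups hold the same animals, and papillae are a mixed tissue of epithelium and underlying connective tissue. In such a sample, fewer cells of one type and less RNA per cell cannot be told apart.

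Metalloproteinases are zinc enzymes that are secreted, or anchored at the cell surface, as inactive precursors and that cut collagens and other matrix proteins once activated. Collagenases such as MMP1 and MMP13 open the fibrillar collagen triple helix, and gelatinases such as MMP2 and MMP9 degrade the denatured collagen and the basement membrane collagens. TIMPs bind the active site of these enzymes and block it. Urokinase converts plasminogen to plasmin, which can activate several of the precursors, and the whole system takes part in tissue remodelling, wound repair and leukocyte migration.

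All values below are normalized log2 signals, and fold changes are between groups of arrays for the same probe. Signals of different probes were not compared with each other. Of the 7 measured members, 6 were well above background on all 8 arrays by the scanner software's own test. MMP13 was well above background on 7 arrays and not on the HC array of cow 1. On each array, 76.9 to 81.2% of the 21475 probes were well above background and no spot was saturated.

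Tissue identity was checked with marker genes. Of 9 rumen epithelium markers with a probe, 8 were well above background on all 8 arrays, among them KRT14, a basal keratin, and DSP, a desmosome protein. TP63, a basal epithelial transcription factor, was not well above background on any array. The connective tissue was present too, since 10 of 10 fibroblast markers, 7 of 7 smooth muscle markers and 3 of 3 endothelial markers with a probe were well above background on all 8 arrays. So were 8 of 9 macrophage and neutrophil markers, the exception being the integrin gene ITGAM, which was so on no array.

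The first question was whether the members differed between the HC and LC groups. None of the 7 measured members passed the study's definition of a changed gene, which asks for both a 1.5-fold change and an unadjusted P below 0.05, here from limma. Over all probes, 0.922% passed it. At an unadjusted P below 0.05 alone, 0 of 7 members passed, beside 3.65% of all probes. No probe of the array passed at an adjusted P below 0.05. Exact two-sided permutation tests compared the 4 HC with the 4 LC arrays, here and below without regard to cow or period. The smallest exact permutation P among the 7 members was 0.343, where 0.0286 is the smallest this unpaired test can give. The signals of the diet groups overlapped for all 7 members, whereas they did not overlap for 1.6% of all probes. The median difference of the members was 0.06 on the log2 scale, beside -0.00 for all probes.

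**Figure D1:**
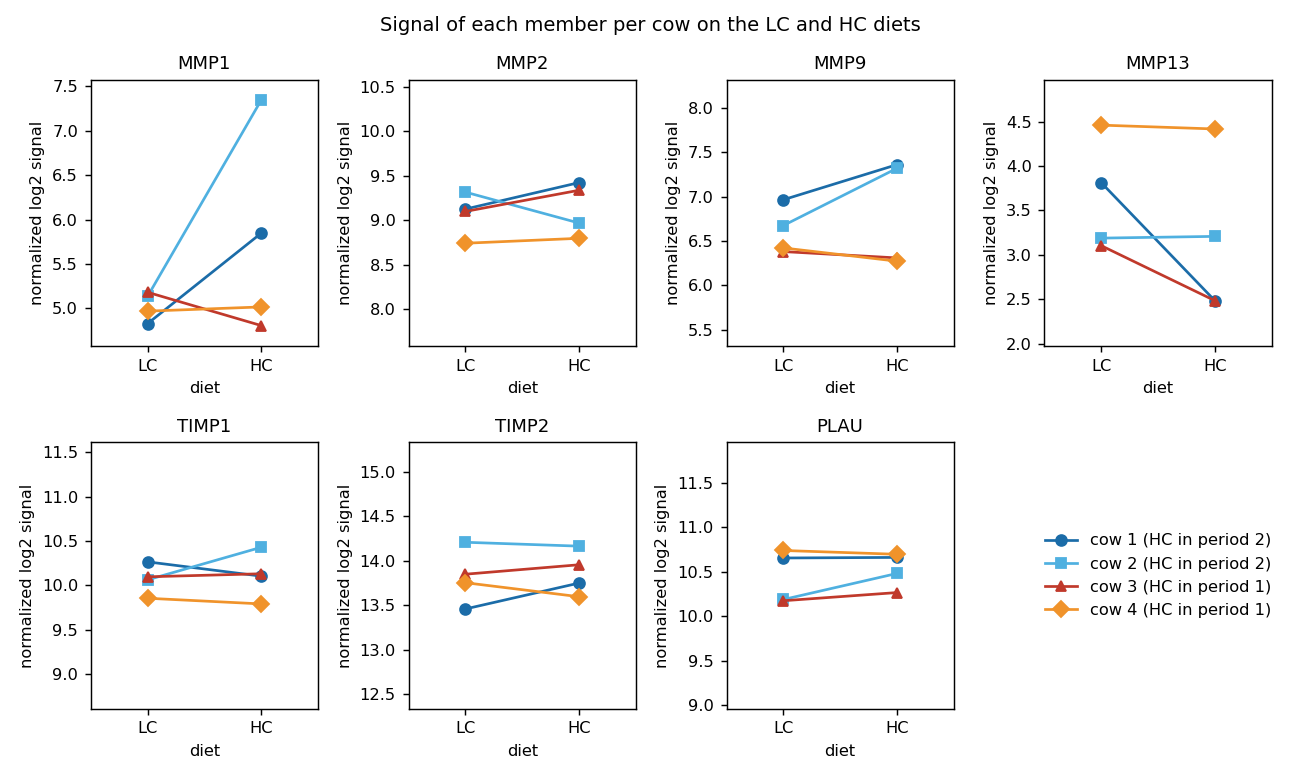
Normalized log2 signal of the 7 measured members on the LC and HC diets, with 1 line per cow and panels that all span the same height. MMP1 ran steeply upward in cows 1 and 2, from 4.83 to 5.85 and from 5.13 to 7.34, while the TIMP and PLAU lines were nearly flat.

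MMP1 (NM_174112), the interstitial collagenase, gave the largest diet difference of the members. On the LC diet its log2 signal was 4.83 in cow 1, 5.13 in cow 2, 5.18 in cow 3 and 4.97 in cow 4. On the HC diet it was 5.85 in cow 1, 7.34 in cow 2, 4.81 in cow 3 and 5.02 in cow 4. The LC arrays lay within a narrow band, and the HC arrays of cows 1 and 2 lay above all of them, while those of cows 3 and 4 did not.

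MMP1 averaged 5.03 ± 0.16 (SD, n = 4) on LC and 5.75 ± 1.15 on HC. The fitted difference was 0.73 (SE 0.32, 95% interval -0.05 to 1.50), a 1.65-fold higher signal in the HC group, with an unadjusted P of 0.0627 from limma, an exact permutation P = 0.343 and adjusted P = 1.000. Within cows, HC minus LC was 1.02 in cow 1, 2.21 in cow 2, -0.37 in cow 3 and 0.05 in cow 4. Compared within periods, the HC arrays differed from the LC arrays by -0.07 in period 1 and by 1.52 in period 2. In each period the diets were fed to different cows, so these values also hold any difference between the cows. The high HC values were those of cows 1 and 2, which received the HC diet in period 2. With cow as a block, the diet difference of MMP1 had an unadjusted P of 0.0298 from limma and passed both thresholds, with adjusted P = 0.843.

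The size for MMP1 depended on the HC arrays of cows 1 and 2. It fell to 0.35 when the HC sample of cow 2 was left out. Leaving out the HC sample of cow 1 instead raised it to 1.10, past both thresholds, with adjusted P = 0.337. Under normexp background correction with an offset of 50 it was 0.33. That offset is added to every intensity and by itself shrinks the log2 differences of dim signals.

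**Figure D2:**
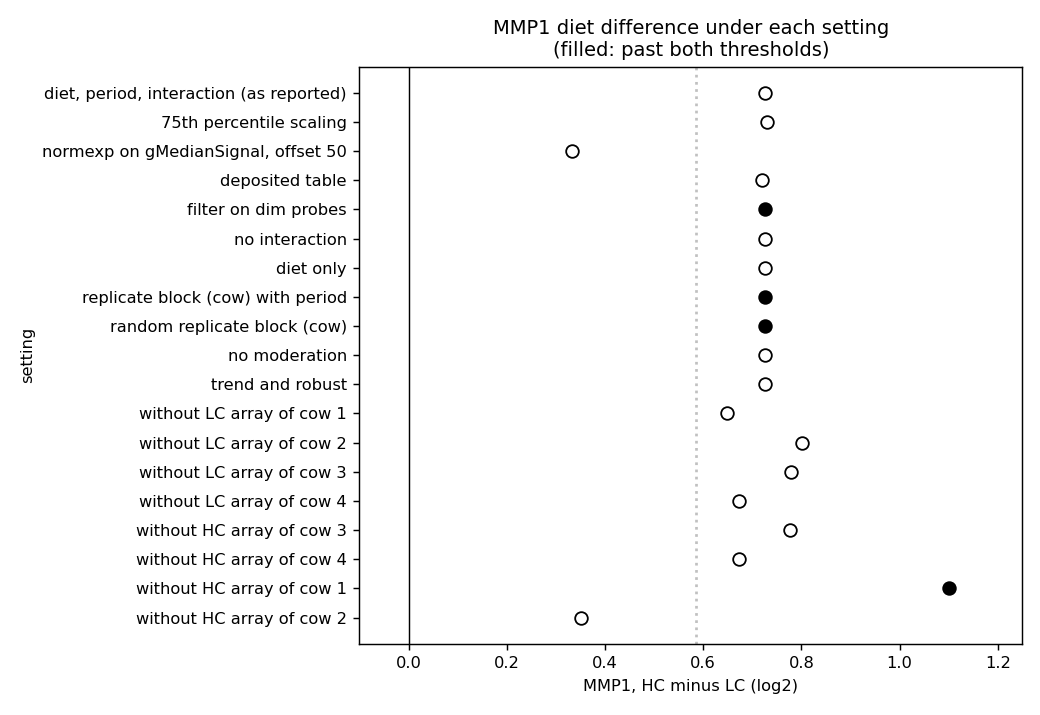
Log2 difference of MMP1, HC minus LC, under each setting, with filled points where it passed both thresholds and a dotted line at a 1.5-fold change. With all 8 arrays the value was 0.72 to 0.73, apart from normexp (0.33), and with 7 arrays it ran from 0.35 (HC sample of cow 2 left out) to 1.10 (HC sample of cow 1 left out).

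MMP13 (NM_174389), the other collagenase measured, was the 1 member that was not well above background on every array. Its log2 signal on the LC diet was 3.81, 3.19, 3.10 and 4.46 in cows 1 to 4, and on the HC diet it was 2.48, 3.21, 2.48 and 4.42. The HC value of cow 1 was not well above background. Cow 4 was the highest on both diets, and the diet groups overlapped. The difference was -0.49 (SE 0.52), with an exact permutation P = 0.400 and adjusted P = 1.000. Its 95% interval ran from 0.299-fold to 1.69-fold. MMP13 and MMP1 lie near each other in the bovine gene order, in the run MMP13, MMP12, MMP3 and MMP1, and their r over the 8 arrays was -0.26.

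MMP9 (NM_174744), gelatinase B, which neutrophils and macrophages store or secrete, had a log2 signal of 6.97, 6.68, 6.38 and 6.42 in cows 1 to 4 on the LC diet. On the HC diet it was 7.36, 7.32, 6.31 and 6.27. Cows 1 and 2 were above cows 3 and 4 on each diet. MMP9 averaged 6.61 ± 0.27 (SD, n = 4) on LC and 6.82 ± 0.61 on HC. The diet difference of 0.20 (SE 0.098) had an exact permutation P = 0.629, and the unadjusted limma P was 0.0790. HC minus LC was 0.40 and 0.64 in cows 1 and 2, and -0.07 and -0.15 in cows 3 and 4. Within periods it was -0.53 in period 1 and 0.94 in period 2. In each period the diets were fed to different cows, so these values also hold the difference between cows 1 and 2 and cows 3 and 4.

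MMP2 (NM_174745), gelatinase A, which fibroblasts produce constitutively, was nearly level. Its log2 signal was 9.13, 9.32, 9.10 and 8.74 in cows 1 to 4 on the LC diet and 9.42, 8.97, 9.34 and 8.80 on the HC diet. Cow 4 was the lowest on both diets. The difference was 0.06 (SE 0.18), with an exact permutation P = 0.771, and its 95% interval ran from 0.770-fold to 1.41-fold.

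TIMP1 (NM_174471), an inducible inhibitor that binds most secreted metalloproteinases, had a log2 signal of 10.27, 10.06, 10.10 and 9.86 in cows 1 to 4 on the LC diet. On the HC diet the values were 10.10, 10.43, 10.13 and 9.79. The difference was 0.04 (SE 0.14, exact permutation P = 0.771), with a 95% interval from 0.819-fold to 1.30-fold. TIMP2 (NM_174472), which both inhibits MMP2 and helps to activate its precursor, had 13.46, 14.21, 13.85 and 13.75 on the LC diet and 13.75, 14.16, 13.95 and 13.59 on the HC diet. Cow 2 was the highest on both diets, and the diet difference was 0.05 (SE 0.20, adjusted P = 1.000), with an interval from 0.737-fold to 1.45-fold. Both inhibitors were higher on the HC diet in 2 of 4 cows and lower in the other 2.

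PLAU (NM_174147) separated individual cows more than diets. Its log2 signal was 10.66, 10.19, 10.17 and 10.74 in cows 1 to 4 on the LC diet and 10.66, 10.48, 10.27 and 10.70 on the HC diet. Cows 1 and 4 were above cows 2 and 3 on each diet. The cow means ran from 10.22 to 10.72, while the largest difference within a cow was 0.29. The diet difference was 0.09 (SE 0.19, exact permutation P = 0.600), with an interval from 0.772-fold to 1.46-fold. For MMP2, MMP9, TIMP1, TIMP2 and PLAU the intervals lay inside a 1.5-fold change in both directions, and for MMP1 and MMP13 they did not.

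**Figure D3:**
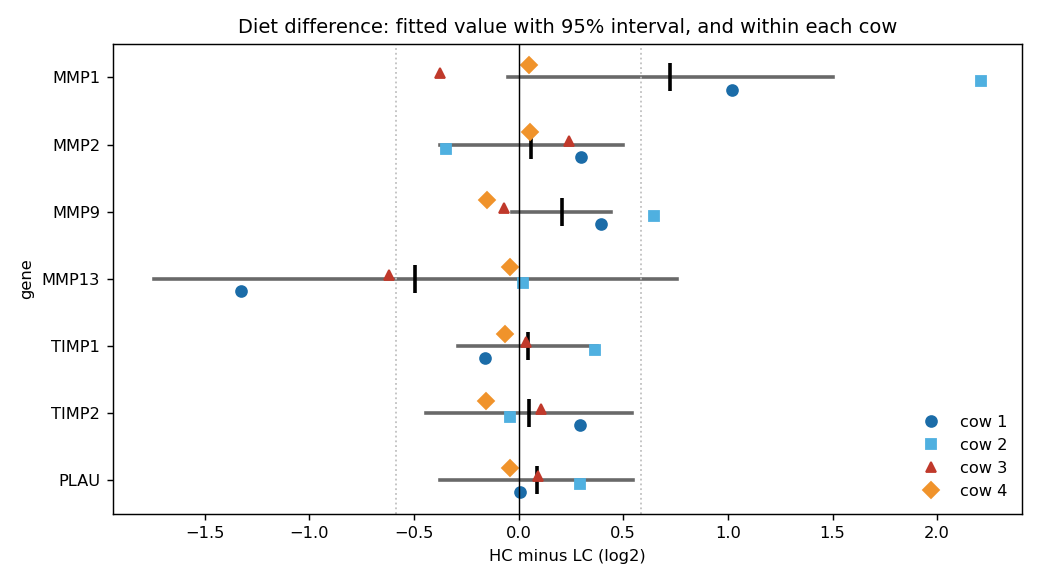
HC minus LC on the log2 scale for the 7 measured members, with the fitted value (black tick), its 95% interval (grey bar) and the difference within each cow (coloured symbols). Dotted lines mark a 1.5-fold change in each direction, and all 7 intervals included 0, with that of MMP1 from -0.05 to 1.50.

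The crossover also allowed the 2 cows of each diet order to be compared. The contrast of cows 1 and 2 with cows 3 and 4 is the same quantity as the interaction of diet and period in the study's model, so a difference between these animals and an effect of diet order cannot be told apart. Of the 7 members, 2 passed both thresholds, MMP9 and MMP1, beside 2.93% of all probes. At an unadjusted P below 0.05 these same 2 passed, beside 10.2% of all probes. Neither passed after adjustment over all probes.

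MMP9 was the clearer of the pair. Its 4 values in cows 1 and 2 lay between 6.68 and 7.36, and its 4 values in cows 3 and 4 lay between 6.27 and 6.42. The groups of cows did not overlap, which held for 1 of the 7 members and for 5.63% of all probes. The difference was 0.73 (SE 0.098, 95% interval 0.50 to 0.97), a 1.66-fold higher signal in cows 1 and 2, with an unadjusted P of 0.000238 and adjusted P = 0.157 in limma. The arrays of a cow are not separate animals. On the mean of each cow, 2 against 2, limma gave an unadjusted P of 0.00311 and adjusted P = 0.817. On these means MMP9 was the 1 member of 7 with an unadjusted P below 0.05, beside 5.96% of all probes. Leaving out any one array gave differences between 0.66 and 0.81.

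MMP1 differed by 0.79 (SE 0.32) between the same cows, with an unadjusted P of 0.0464 and adjusted P = 0.485 in limma, but its cow groups overlapped, because the LC values of cows 1 and 2 lay among those of cows 3 and 4. On cow means the unadjusted P was 0.0706. The call was lost without any one of 7 of the 8 arrays, the exception being the HC array of cow 1. Between periods, MMP1 was 0.89 higher (SE 0.32) in period 2, with an unadjusted P of 0.0310 and adjusted P = 0.345 in limma, and was the 1 member of 7 past both thresholds, beside 3.86% of all probes. This call was also lost without any one of the same 7 arrays. MMP9 was 0.32 higher in period 2 (adjusted P = 0.278), below the 1.5-fold threshold.

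The plasminogen system, which acts upstream of the metalloproteinases, showed no diet call. Of its 10 listed genes besides PLAU, 9 had a probe, and all arrays measured 8 of them well above background. The exception was PLG itself, which encodes plasminogen and is known mainly from liver, with no array above that level. None of the 9 passed P below 0.05 for diet, beside 3.65% of all probes. Their median difference was -0.00, the same as that of all probes to this precision. The smallest limma P in the list was that of PLAUR, the urokinase receptor, which differed by 0.28 (SE 0.18, exact permutation P = 0.200) and was higher on the HC diet in 3 of 4 cows. SERPINF2, the plasmin inhibitor, differed by 0.29 (exact permutation P = 0.371), and ANXA2, a cell surface plasminogen receptor subunit, by -0.16 (SE 0.15).

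Between the groups of cows, SERPINE2 and PLAT did not overlap, again beside 5.63% of all probes. They are named here after their values were seen. SERPINE2, protease nexin 1, an inhibitor of urokinase, lay between 8.73 and 9.78 in cows 1 and 2 and between 7.84 and 8.57 in cows 3 and 4. It was 0.90 higher (SE 0.25, adjusted P = 0.379), with an unadjusted P of 0.0104 from limma over arrays and of 0.0193 on cow means.

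PLAT, the tissue plasminogen activator, ran the other way. Its values were 10.18 to 10.47 in cows 1 and 2 and 10.51 to 10.68 in cows 3 and 4, a difference of -0.27 (SE 0.11, adjusted P = 0.482). Its unadjusted P was 0.0446 over arrays and 0.111 on cow means. Thus SERPINE2 was higher, and PLAT lower, in the same cows in which MMP9 was higher, whereas PLAU differed between the cow groups by 0.03 (SE 0.19). Over the 8 arrays, which share 4 cows, MMP9 correlated with SERPINE2 at r = 0.81 and with PLAT at r = -0.62, as a description without a test.

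**Figure D4:**
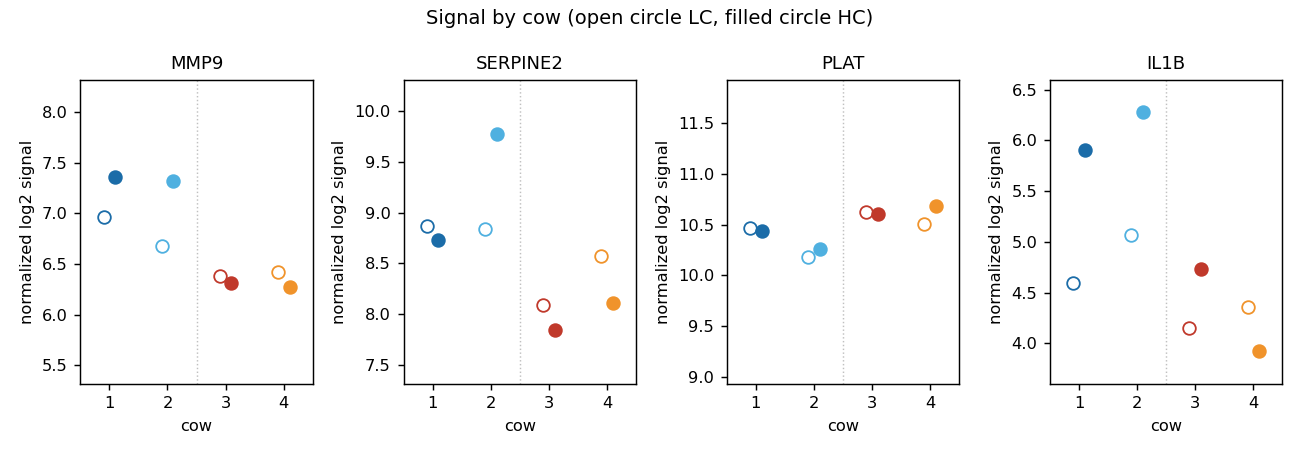
Normalized log2 signal of MMP9, SERPINE2, PLAT and IL1B by cow, with open circles for the LC diet and filled circles for the HC diet, and panels that all span the same height. For MMP9 every value of cows 1 and 2 (6.68 to 7.36) was above every value of cows 3 and 4 (6.27 to 6.42), while the IL1B ranges of the cow groups overlapped.

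Genes known to induce metalloproteinase transcription were compared as well. Of 14 listed, 10 had a probe, and 9 of these were measured well above background throughout. IL1B (NM_174093), an inflammatory cytokine that induces MMP1 and MMP9 in many cells, was the 1 gene past both thresholds for diet. It was among the genes the study itself chose on these arrays, so it is no independent evidence. Its log2 signal was 4.60, 5.06, 4.15 and 4.36 in cows 1 to 4 on the LC diet and 5.91, 6.28, 4.73 and 3.92 on the HC diet. The HC arrays of cows 1 and 2 were above all others, as they were for MMP1 and MMP9, and the diet groups overlapped.

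The IL1B difference between diets was 0.67 (SE 0.22), with an unadjusted P of 0.0217 from limma, an exact permutation P = 0.314 and adjusted P = 1.000. Within periods, where the diets were fed to different cows, it was -0.51 in period 1 and 1.84 in period 2. The call was lost when any one of 4 arrays was left out, namely LC of cow 1 or 3 and HC of cow 2 or 3. Between the cow groups IL1B differed by 1.17 (SE 0.22, adjusted P = 0.291), with an unadjusted P of 0.00155 from limma over arrays and of 0.00420 on cow means. Over the 8 arrays its r was 0.88 with MMP9 and 0.83 with MMP1, given as a description since the arrays share cows.

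FOSL2, a subunit of the AP-1 transcription factor that binds metalloproteinase promoters, had the smallest P for diet in the list. Its values were 7.58, 7.50, 7.54 and 7.31 on the LC diet and 7.90, 7.78, 7.73 and 8.12 on the HC diet in cows 1 to 4. All 4 HC values were above all 4 LC values, and the exact permutation P was 0.0286, the smallest this unpaired test can give. Of the 38 related genes with a probe, this was the 1 whose diet groups did not overlap, beside 1.6% of all probes. The FOSL2 difference was 0.40 (SE 0.12), with an unadjusted limma P of 0.0163 and adjusted P = 1.000, and is below the 1.5-fold threshold. RELA, a subunit of NF-kappaB, was higher on the HC diet in 4 of 4 cows by a fitted 0.19 (SE 0.09, exact permutation P = 0.0857). TNF was well above background on 3 of 8 arrays. FOS, JUN and JUNB, the other AP-1 genes measured, differed by -0.08, 0.12 and 0.09, and none of these passed an unadjusted P of 0.05.

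The remaining relatives gave no diet call in the fit used here. Among the other metalloproteinases and TIMP4, 3 of 18 genes had a probe. MMP15, a membrane-type enzyme, was lower on the HC diet in 4 of 4 cows, by a fitted -0.15 (exact permutation P = 0.514). MMP27 was well above background on 6 arrays, and MMP20, the enamel enzyme, on none. The study itself listed MMP20 among its changed genes, with a lower signal on HC. Here MMP20 differed by -0.27 (SE 0.24), with an unadjusted P of 0.300 from limma. In the authors' own normalized table, 3 of the MMP20 values coincided with the average of the same diet's remaining arrays, at a tolerance of 0.005. No member had such a value there. Whether these values account for the study's MMP20 call was not tested. Of the ADAM and ADAMTS proteases, 8 of 14 had a probe, 6 of them well above background on all arrays, and ADAMTS1, an aggrecan-cleaving enzyme, differed by 0.21 (exact permutation P = 0.429). Of the lysosomal matrix proteases, 4 of 7 had a probe, and CTSB, cathepsin B, was higher on the HC diet in 4 of 4 cows by a fitted 0.17 (exact permutation P = 0.0857). Of the cell surface regulators, 4 of 10 had a probe. ITGAV, an integrin chain, differed by -0.19 (exact permutation P = 0.200) and was lower on HC in 3 of 4 cows, and THBS1, thrombospondin 1, differed by -0.09 (exact permutation P = 0.543). RECK, a membrane-bound metalloproteinase inhibitor, differed by 0.02 (exact permutation P = 0.857). BSG, an inducer of metalloproteinases on neighbouring cells, differed by -0.06 (exact permutation P = 0.400).

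Over all these related lists, 38 of 73 genes had a probe, and 1 of the 38 passed both thresholds for diet beside 0.922% of all probes. At an unadjusted P below 0.05, 2 of the 38 passed beside 3.65%. Both were the inducers named above.

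Markers of the cell types that make these enzymes were set beside the MMP1 and MMP9 values. For diet, 0 of 10 fibroblast markers, 0 of 9 epithelial markers and 0 of 9 macrophage and neutrophil markers passed P below 0.05. Over all probes 3.65% did, so lists this short could easily hold no call. The log2 of the summed fibroblast signal ranged from 14.43 to 14.67 in the LC group and from 14.44 to 14.73 in the HC group. The macrophage and neutrophil sum ranged from 18.85 to 19.17 in the LC group and from 18.89 to 19.26 in the HC group. All 8 of these leukocyte markers that were measured well above background throughout had a higher fitted value on HC, between 0.05 and 0.53 (median 0.12). FCGR3A, an Fc receptor of these leukocytes, was higher on the HC diet in 4 of 4 cows by a fitted 0.53 (exact permutation P = 0.114). The direction was not particular to leukocytes. Among markers well above background throughout, 6 of 7 smooth muscle and 3 of 3 endothelial markers were also higher on HC. So were 6 of 10 fibroblast and 3 of 8 epithelial markers.

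Between the groups of cows, 2 of the 9 macrophage and neutrophil markers passed P below 0.05, beside 10.2% of all probes. They went in opposite directions and did not reach 1.5-fold. The P values of this paragraph are from limma over arrays, in which the arrays of a cow are not separate animals. AIF1, a macrophage gene, was 0.42 higher in cows 1 and 2 (adjusted P = 0.485), and ITGB2, the leukocyte integrin beta chain, differed by -0.49, with lower values there (adjusted P = 0.336). Of the 8 measured well above background throughout, 6 had higher values in cows 1 and 2 (median of the 8, 0.33, beside -0.00 for all probes), up to 0.71 for S100A9. The summed signal of the list was 18.92 to 19.26 in cows 1 and 2 and 18.85 to 19.17 in cows 3 and 4, and no array measured ITGAM well above background. All 7 smooth muscle markers also had higher values in cows 1 and 2, between 0.01 and 0.61 (median 0.27), and 1 of them, the actin gene ACTG2 with 0.51, passed an unadjusted P of 0.05. In the same cows, 3 of 3 endothelial, 6 of 10 fibroblast and 4 of 8 epithelial markers well above background throughout were lower. The part of these cells in the MMP1 and MMP9 differences was not tested.

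The genes whose signal followed MMP1, MMP2, MMP9, TIMP1 and PLAU most closely over the 8 arrays were looked up among 6469 named genes well above background on all of them. With the array values of 4 cows and so many genes, high correlations are common, and they are given as a description only. MMP9 was closest to HM13 (r = 0.96), USP5 (0.95) and DKC1 (0.95), and MMP1 to NXF1 (0.93), GOSR2 (0.92) and NPTN (0.90). TIMP1 was closest to NDUFA10 (0.95), PLAU to CYP39A1 (0.97) and MMP2 to TM6SF2 (0.92). Among the members themselves, the highest r was 0.72, between MMP1 and MMP9, and the lowest was -0.89, between MMP2 and MMP13.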

How the data were processed

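RNA of 8 papilla samples, 4 per diet, was measured on single-colour Agilent arrays. The authors deposited scanner output (Feature Extraction 10.7.3.1) with a background-subtracted intensity per spot, not normalized between arrays, and a table of quantile-normalized log2 values that they had made from it; the latter served as an alternative. Centred on each probe's mean, that table's columns for cows 1 and 2 matched the scanner output of the other cow of the pair (r of 0.837 to 0.869 against 0.0423 to 0.203 with their own), on both diets alike. Which of the 2 animals is cow 1 is therefore unsettled, while their diets, periods and pairing are the same either way; the names of the scanner output were used. After removal of control and outlier spots, log2 intensities were quantile-normalized and averaged per probe (limma 3.58.1, R 4.3.3). A probe was well above background on an array where all its kept spots were so marked. Groups came from the diet and cow labels. The bovine reference named 8297 of the 10176 probes that carry a RefSeq accession. Coordinates and sequences are not given, because the array was annotated on another assembly and no sequence table was used here.

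The terms were those of the study, diet, period and their interaction, but the study fitted them as a general linear model in SPSS, and here lmFit and eBayes, which moderate the variance, were run on all 21475 probes (4 residual degrees of freedom), without a filter, and P was adjusted by Benjamini-Hochberg over all probes. SEs and intervals come from this fit. In simulated data on 21475 probes, 4 against 4, both thresholds were passed by 19 of 50 probes changed 1.5-fold and by 47 of 50 changed 2-fold. A 1.5-fold change lies at the fold threshold itself, so it would often be missed with any number of arrays. The simulated arrays were independent, without shared cows, and the changed probes were among those well above background on all arrays. The number of arrays limits the precision. Arrays of a cow deviated together (r of 0.113 to 0.467 in the 4 cows over 16030 probes), and cow number marks the same animal, so a fit with cow as a block was also made. Other alternatives were the scaling, background correction, a filter on dim probes, simpler models and leaving out each array. Normexp on the median signals and the fit on cow means were chosen after seeing the data. All members and their related genes were named, and of the related and marker lists those past both thresholds for diet and the 3 with the smallest P per list, with further genes named where stated. The members and lists were chosen with earlier results of these data known. Some genes are not reported here.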

Additional observations from a re-analysis of the deposited data

Results flagged for a closer look

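MMP9 and MMP1 differed between the cows that received the HC diet in period 2 and those that received it in period 1, which is the test of the interaction of diet and period. MMP9 was 0.73 higher on the log2 scale in cows 1 and 2 (adjusted P = 0.157 in limma), and MMP1 was 0.79 higher (adjusted P = 0.485). For MMP9, HC minus LC was above 0 in both of cows 1 and 2 and below 0 in both of cows 3 and 4, and the mean differences of these pairs of cows lay 0.63 apart. Cows 1 and 2 had HC in period 2, and cows 3 and 4 had it in period 1. This gap therefore restates the period difference of MMP9 and is no separate result. The period difference was 0.32 (SE 0.098), with an unadjusted P of 0.0170 and adjusted P = 0.278 in limma. Of the 14 groups of 4 arrays examined for an array far from the other 3, none had one.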

How the results depend on the processing

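The number of members past both thresholds for diet was 0 and became 1, with MMP1, under a filter on dim probes, with a replicate block for cow with period, and with a random replicate block for cow. It was 0 to 1 when single arrays were left out. MMP1 stayed at 0.73 in these 3 fits, with unadjusted P of 0.0487, 0.0298 and 0.0482 (adjusted P = 1.000, 0.843 and 0.677), and ran from 0.35 to 1.10 when single arrays were left out. The block for cow changed no other call on a member. With single arrays left out, the diet differences of the members without a call changed sign for MMP2 (-0.074 to 0.20), TIMP1 (-0.041 to 0.13), TIMP2 (-0.14 to 0.24) and PLAU (-0.054 to 0.23); those of MMP9 (0.13 to 0.28) and MMP13 (-0.98 to -0.01) did not. The 1 member called for period became 0 under normexp, without the interaction and without moderation of the variance, and 0 to 1 with single arrays left out. The 2 members called between the cow groups became 0 under normexp, 1 without moderation, 1 on cow means, and 1 to 2 with single arrays left out. Under normexp the MMP9 difference between cow groups was 0.43, below the 1.5-fold threshold, with an unadjusted P of 0.000131 in limma. The normexp offset of 50 by itself shrinks log2 differences, most for dim signals. Calls at the same fold threshold are therefore not a like comparison under normexp. The 1 related gene called for diet, IL1B, became 0 under normexp, without the interaction, with diet alone, with the random block and without moderation, and the count was 0 to 2 with single arrays left out. The causes were not tested. Over all probes, 198 passed both thresholds for diet, against 8 under normexp, 75 of 16544 with the filter, 415 in the deposited table, 105 without moderation and 239 to 404 with single arrays left out. Normexp on the mean signals was planned and not run; it was run on the median signals instead. A 1.5-fold change was often missed in simulated data, but it lies at the fold threshold itself, so the misses do not measure the limit set by 4 cows alone. The dim signal of MMP13 limits its value further.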
